A study of Homo sapiens with 24 samples.

Results

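MS275 and MPP were compared directly in neurons of dopaminergic type, with 3 libraries treated with MS275 set against 3 treated with MPP, 6 of the 24 libraries of the series. The members were those libraries, chosen by the compound named in their labels, and each gene that passed an expression filter was tested, 18852 of the 58051 genes counted. The cells were LUHMES, a line of human mesencephalic precursors immortalised with a v-myc gene that tetracycline shuts off, which then become post-mitotic neurons; each library is thus a culture of the same line. Cultures were differentiated with tetracycline, cAMP and GDNF and then received MS275 (entinostat) at 5 µM, MPP (1-methyl-4-phenylpyridinium) at 5 µM, or 1% DMSO as the vehicle, each for 6 h. Dose and time thus matched between the compounds, and stocks of both were made in DMSO. The final share of DMSO is known here for the vehicle cultures alone. RNA was selected for poly(A) and then depleted of ribosomal RNA.

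MS275 inhibits the class I histone deacetylases, enzymes that work in corepressor complexes such as SIN3, NuRD, CoREST and NCOR and remove acetyl groups from histone tails; their inhibition is known to raise many genes that are nearly silent in a cell. MPP is the active metabolite of the parkinsonism toxicant MPTP. It enters dopaminergic neurons through the dopamine transporter, accumulates in mitochondria and blocks complex I of the respiratory chain. Cells under mitochondrial stress are known to engage the integrated stress response, in which phosphorylation of the initiation factor eIF2 favours translation of ATF4, whereas misfolded protein in the endoplasmic reticulum (ER) acts through the sensors ATF6, IRE1 (ERN1) and PERK (EIF2AK3).

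Library totals, counted to genes, ranged from 14.35 to 30 megareads in MS275, from 20.64 to 31.81 in MPP and from 14.29 to 33.37 in DMSO. The number of genes with at least 1 count ranged from 24748 to 27267 in MS275, from 22719 to 24517 in MPP and from 22091 to 25670 in DMSO. The 10 most counted genes took 5.955 to 6.507% of counts in MS275, 8.219 to 10.42% in MPP and 4.937 to 5.878% in DMSO, and the larger share in MPP includes mitochondrial ribosomal RNA. Over the 500 genes that differed most between a pair of libraries, the root mean square log2 difference was 3.25 to 3.71 between MS275 and MPP libraries, 1.85 to 2.32 among MS275 libraries and 1.82 to 2.19 among MPP libraries. The third library of MS275 was the shallowest of that group, and the third library of MPP that of its own. Neuronal markers were well counted in both groups: the pan-neuronal list summed to 11790 to 13360 CPM (counts per megacount of the scaled library total) in MS275, 10810 to 12110 in MPP and 11140 to 12850 in DMSO, and of its 23 members 6 were higher in MS275, among them CHGA (log2 difference 0.89) and NEFL (0.63), 2 were lower, TUBB3 (-0.42) and CHGB (-0.26), and 15 were not called, among them MAP2, DCX and SNAP25. With library totals alone, 10 were higher and 0 lower. TUBB3 was close to the threshold (edgeR adjusted p = 0.0455) and was not called with DESeq2 or limma-voom. Without MPP replicate 3 its log2 difference was -0.17, and it was not called. Of the dopaminergic markers, TH, DDC, NR4A2 and the dopamine transporter SLC6A3 were counted in each library, whereas LMX1A and FOXA2 had 0 counts in MS275, MPP and DMSO libraries.

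Over the 18852 genes, 9571 (50.8%) differed between MS275 and MPP at an adjusted p under 0.05 (edgeR quasi-likelihood test, Benjamini-Hochberg adjustment). Of these, 4687 (24.9% of genes tested) were higher in MS275 and 4884 (25.9%) lower. Genes both called and at least 2-fold apart numbered 3387 (18%), of which 2643 (14%) were higher in MS275 and 744 (3.95%) lower. The balance of higher and lower calls moved with the scaling: with library totals alone, 5552 genes were called higher and 3859 lower, or 58.99% of calls higher against 48.97% with the TMM scaling used throughout. Under that scaling by totals the median log2 difference of all genes was 0.17, against 0.06 with TMM, a shift of 0.11 against which small differences below have to be read. The 3 libraries of MS275 and the 3 of MPP did not overlap in 11260 genes (59.7%). Set against the same 3 DMSO libraries, MS275 had 8136 genes called (43.2%) and MPP 2034 (10.8%).

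The genes higher in MS275 and those lower in it came from different parts of the expression range. Among 3085 genes with a mean under 0.5 CPM in DMSO, 25.7% were higher in MS275 and 0.875% lower. At 2 to 10 CPM the shares were 37.5% higher and 14% lower of 3091 genes, and at 50 to 200 CPM they had turned to 14.7% higher and 49.1% lower of 3842 genes. A low count limits what can be called: a gene near 0 in DMSO and MPP has little room to be lower in MS275. The expression filter acts over all 24 libraries, so a gene near 0 in DMSO can be tested because MS275 is high. The split at low levels is thus partly set by the filter. The type of gene differed in the same way, with 42.5% of 1257 lincRNA genes higher in MS275 and 3.26% lower, 31.7% and 2.51% of 1237 antisense genes, and 23.7% and 32.5% of 14431 protein-coding genes. Genes at least 2-fold higher in MS275 had a median of 1.17 CPM in DMSO, and those at least 2-fold lower a median of 18.9 CPM. Counts of list members below are to be read against the shares at their own level as well as those over all genes.

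**Figure D1:**
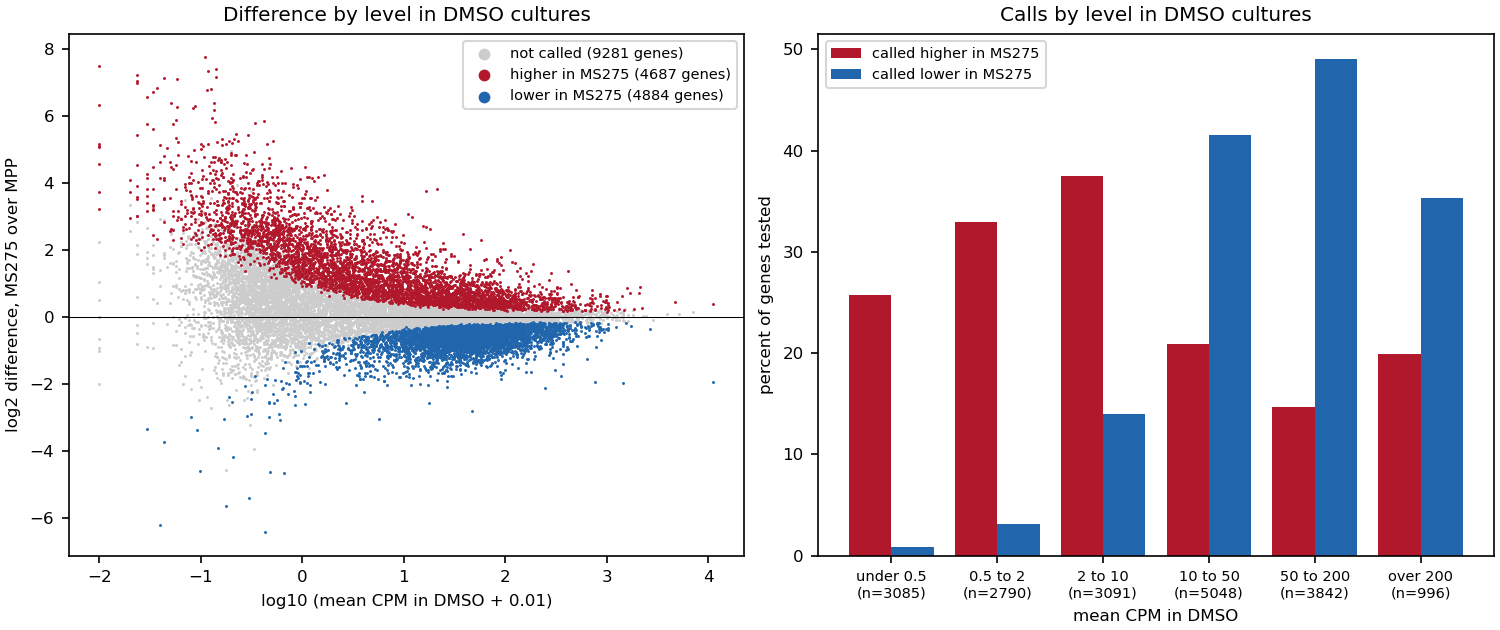
Each point in the left panel is 1 of 18852 genes, with the log10 of its mean CPM in DMSO plus 0.01 on the horizontal axis and the log2 difference of MS275 over MPP on the vertical axis; bars on the right give the percent of genes in each DMSO level called higher or lower in MS275. Calls above 0 dominate at low levels (25.7% against 0.875% under 0.5 CPM) and calls below 0 above 10 CPM (41.6% lower against 20.9% higher at 10 to 50 CPM). The expression filter can keep a gene that is high in MS275 alone, which favours calls above 0 at low levels.

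Gene length and chromosome went along with smaller shifts. Among protein-coding genes with at least 2 CPM in DMSO, 35.6% of the 551 that span over 300 kb were higher in MS275 and 13.8% lower, whereas 18.1% of the 3961 that span 30 to 100 kb were higher and 45.2% lower. Chromosome 21 had 35.9% of 231 genes higher and 16.9% lower, and chromosome 22 33.5% of 469 higher and 17.5% lower. On chromosome 19, by contrast, 17.5% of 1296 genes were higher in MS275 and 28% lower, and on chromosome X 14.9% of 598 were higher and 31.1% lower.

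The 12 named genes furthest higher in MS275 had at least 5 CPM there and were near 0 in MPP. ARSI, an arylsulfatase (chr5:150296343-150339307, GRCh38), had 10.8, 12.1 and 6.03 CPM in MS275 libraries, against 0.165, 0.108 and 0.106 CPM in MPP libraries. Its MPP values rest on 10 reads in all and its log2 difference was 6.17 (SE 0.69, adjusted p = 1.22e-08). AQP1, a water channel (chr7:30911694-30925516), had 12, 13.2 and 12 CPM in MS275 libraries, against 0.198, 0.469 and 0.369 CPM in MPP libraries. The groups were thus far apart, with MS275 libraries close together, and the log2 difference was 5.17 (SE 0.44, adjusted p = 8e-11). GPR20, an orphan G protein-coupled receptor, had 25.5, 21.8 and 23.4 CPM in MS275 libraries, against 1.72, 1.37 and 1.06 CPM in MPP libraries (log2 difference 4.06, SE 0.34, adjusted p = 5.94e-11). CACNA1G, a T-type calcium channel, had 10.5, 9.83 and 7.67 CPM in MS275 libraries, against 0.429, 1.15 and 0.0528 CPM in MPP libraries (log2 difference 4.02, SE 0.57, adjusted p = 8.72e-07). DHRS2, a short-chain dehydrogenase long known to respond to deacetylase inhibitors, had 9.18, 11.1 and 5.69 CPM in MS275 libraries, against 0.99, 0.18 and 0.158 CPM in MPP libraries (log2 difference 4.19, SE 0.48, adjusted p = 2.24e-08). The others were LINC01522, RASD2 (a Ras-like GTPase), SUSD3, PRLHR (a peptide hormone receptor), TGM2 (tissue transglutaminase), FTCD (an enzyme of histidine breakdown) and RPLP0P2, with log2 differences of 4.00 to 5.25. RPLP0P2 is a pseudogene of a ribosomal protein gene and may share reads with it. Against DMSO, MS275 was higher at each of these 12 genes, whereas the adjusted p of MPP over DMSO ranged from 0.0765 (FTCD) to 0.904 (ARSI).

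The 12 named genes furthest lower in MS275 were expressed in each group and were lower by a smaller factor. PPM1K, a mitochondrial phosphatase that switches on branched-chain amino acid breakdown (chr4:88257620-88284769), had 14.1, 13 and 13.4 CPM in MS275 libraries, against 95.5, 92.2 and 98.8 CPM in MPP libraries and 51.5, 45.6 and 42.2 CPM in DMSO libraries. MS275 was thus below DMSO and MPP above it, and the log2 difference between the compounds was -2.82 (SE 0.11, adjusted p = 6.97e-18). DDX17, an RNA helicase of splicing and transcription (chr22:38483440-38507660), had 301, 290.4 and 302 CPM in MS275 libraries, against 1176, 1161 and 1091 CPM in MPP libraries and 745.6, 764.1 and 797.9 CPM in DMSO libraries (log2 difference -1.94, SE 0.07, adjusted p = 1.26e-19). FUBP1, which binds single-stranded DNA upstream of MYC, had 67.9, 61.6 and 69.3 CPM in MS275 libraries, against 292, 284 and 295 CPM in MPP libraries (log2 difference -2.13, SE 0.08, adjusted p = 5.93e-18). LIN54, a subunit of the DREAM cell cycle complex, had 5.15, 8.15 and 7.26 CPM in MS275 libraries, against 28.8, 27.7 and 30.6 CPM in MPP libraries (log2 difference -2.08, SE 0.15, adjusted p = 5.56e-12). At FUBP1 and LIN54, the log2 difference of MS275 over DMSO was -1.90 and -1.94, and MPP was not called against DMSO (adjusted p = 0.0525 and 0.617). INTU (planar polarity and cilia), USP27X (a deubiquitinase), FAM214B, IKZF4 (a zinc finger factor), PARP2 and MANBA (lysosomal mannosidase) followed, at -1.99 to -2.58, together with the mitochondrial ribosomal RNAs MT-RNR1 and MT-RNR2.

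**Figure D2:**
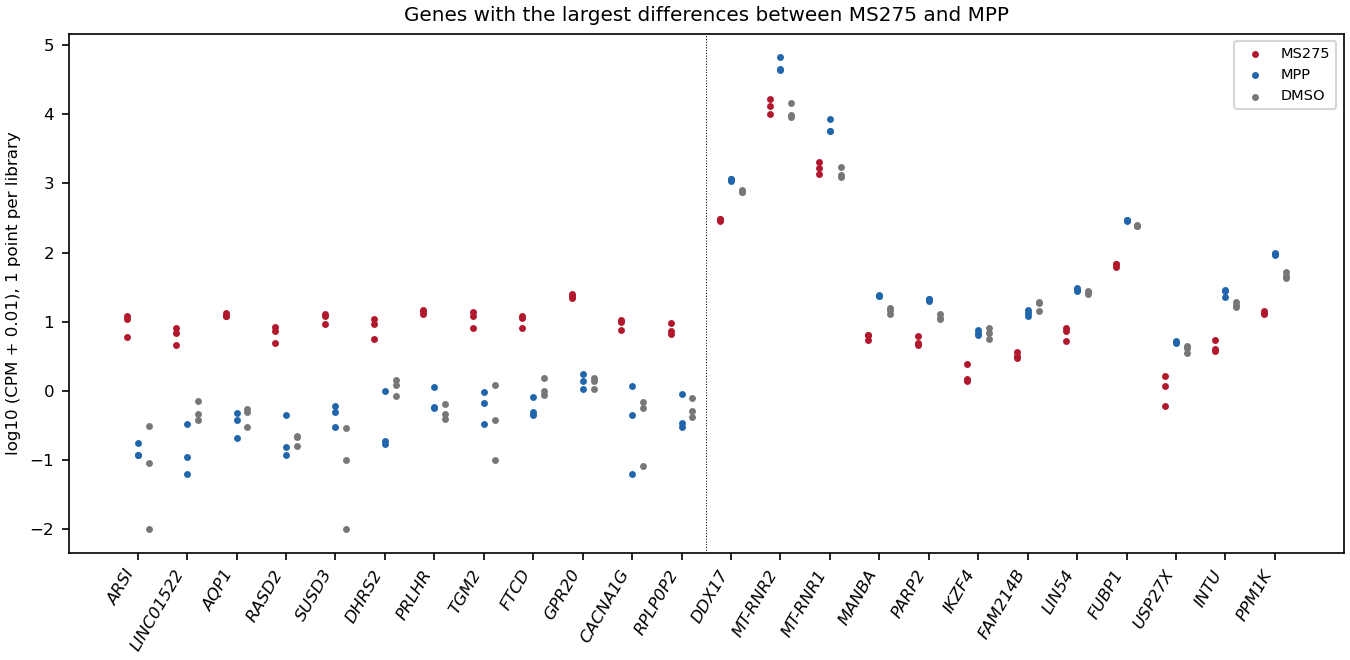
The log10 of CPM plus 0.01 is plotted for 24 genes, 1 point per library, with MS275, MPP and DMSO side by side; the dotted line parts the 12 genes higher in MS275 from the 12 lower. On the left, MPP and DMSO points lie together near the bottom; on the right, the MS275 points lie below both, except at MT-RNR1 and MT-RNR2, where MS275 and DMSO lie together and MPP is above them.

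The rule for this comparison also speaks of genes moved in opposite directions, and 574 genes (3.04% of those tested) were called on opposite sides of DMSO. MS275 was higher and MPP lower in 237 (1.26%), and MS275 was lower and MPP higher in 337 (1.79%), a count of 141 with library totals alone. Both contrasts share the 3 DMSO libraries, so a chance deviation in DMSO moves them the same way, and only each contrast's own values are given. The total depended on single libraries: it was 285, 260 and 300 without DMSO replicate 1, 2 and 3, 314 without MPP replicate 2 and 370 without MPP replicate 3. Of the genes higher in MS275 and lower in MPP, 32.9% were lincRNA or antisense genes, against 1.19% of those lower in MS275 and higher in MPP and 13.2% of all genes tested. Genes lower in MS275 and higher in MPP were 96.4% protein-coding.

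Among genes higher in MS275 and lower in MPP, LINC02202 (chr5:159100483-159117478) had 72.5, 77.5 and 68.9 CPM in MS275 libraries, against 6.86, 4 and 5.28 CPM in MPP libraries and 15.9, 15.5 and 18 CPM in DMSO libraries. Its log2 difference was 2.15 for MS275 over DMSO (adjusted p = 2.57e-12) and -1.61 for MPP over DMSO (adjusted p = 5.53e-08). HES1, a Notch target that holds neural precursors back from differentiation (chr3:194136145-194138732), had 8.76, 7.69 and 6.37 CPM in MS275 libraries, against 1.25, 0.613 and 1.27 CPM in MPP libraries and 2.28, 2.58 and 2.72 CPM in DMSO libraries. The 3 groups did not overlap at either gene, but both were named for their calls on both sides of DMSO, a choice that favours such separation. PSMG3-AS1, SGMS1-AS1, SDCBP2-AS1 and FRMD6-AS1 are antisense genes and followed the same order, as did LINC01547 and FBXL8, an F-box protein gene. The strand setting of the counting is not given in the sources used here, so reads of an antisense gene and its partner cannot be told apart.

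Among genes lower in MS275 and higher in MPP, PARP2, a DNA strand break sensor (chr14:20343582-20357905), had 4.57, 4.92 and 6.1 CPM in MS275 libraries, against 21.4, 21.1 and 20.2 CPM in MPP libraries and 11.4, 10.7 and 13.1 CPM in DMSO libraries. Its log2 difference was -1.20 for MS275 over DMSO (adjusted p = 2.51e-06) and 0.82 for MPP over DMSO (adjusted p = 0.000996). ACIN1, an exon junction protein, had 54.4, 55.3 and 56.6 CPM in MS275 libraries, against 178, 164 and 159 CPM in MPP libraries and 95.3, 99.6 and 102 CPM in DMSO libraries. PRPF4B, a splicing kinase, had 45.8, 41.7 and 50.4 CPM in MS275 libraries, against 144, 147 and 166 CPM in MPP libraries and 88.9, 87.8 and 92.8 CPM in DMSO libraries. These 3 genes showed the same order as PPM1K, and MANBA, NCOA6 (a nuclear receptor coactivator), ZNF581 and BTN2A1 completed the named set.

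**Figure D3:**
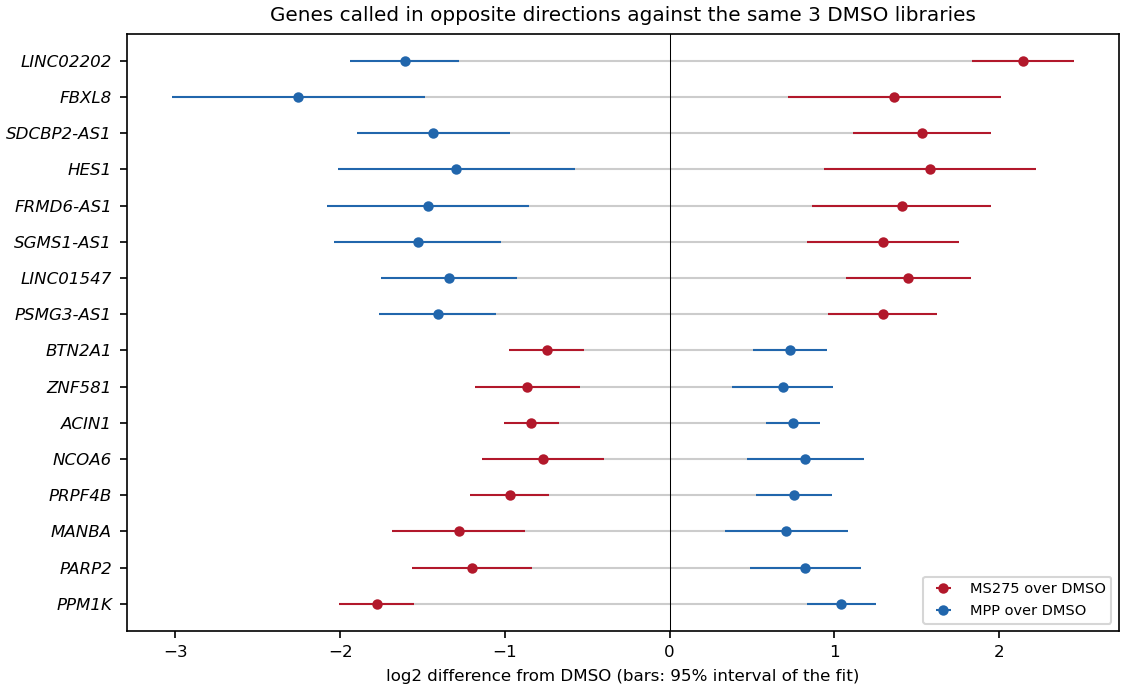
Each row is 1 of 16 genes called in opposite directions, with the log2 difference from DMSO of MS275 and of MPP as points and the 95% interval of the fit as bars. In the 8 rows at the top MS275 lies right of 0 and MPP left of it, and in the 8 at the bottom the sides are exchanged.

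Transcripts of the mitochondrial genome separated the compounds in both directions. The 12S and 16S ribosomal RNAs MT-RNR1 and MT-RNR2 took 1.49, 1.16 and 1.93% of counts in MS275 libraries, against 4.69, 4.8 and 6.91% in MPP libraries and 1.59, 1.11 and 1.05% in DMSO libraries. The lowest MPP library was above the highest of MS275 and DMSO (exact two-sided permutation test between MS275 and MPP, p = 0.1, the smallest that 3 against 3 allows). By gene, the log2 difference was -1.98 for MT-RNR1 (SE 0.14, adjusted p = 3.09e-12) and -1.96 for MT-RNR2 (SE 0.17, adjusted p = 1.65e-10). Poly(A) selection and ribosomal RNA depletion both set how much of this RNA is counted, and their part in the difference was not tested. The 13 protein-coding transcripts summed to 0.331, 0.289 and 0.357% of counts in MS275 libraries, against 0.212, 0.211 and 0.266% in MPP libraries (exact two-sided permutation test, p = 0.1), with 0.28, 0.29 and 0.299% in DMSO.

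Within those 13 transcripts 3 were higher in MS275 and 9 lower, against a background of 24.9% higher and 25.9% lower. MT-ND4L, a complex I subunit, had 9.72, 8.58 and 22.5 CPM in MS275 libraries, against 38.9, 46.6 and 53.2 CPM in MPP libraries and 9.53, 12 and 11.8 CPM in DMSO libraries (log2 difference -1.80, SE 0.23, adjusted p = 1.07e-07). MT-ND1, next to the ribosomal RNAs on the genome, had 14.6, 14.7 and 27.7 CPM in MS275 libraries, against 52.6, 51.5 and 64.8 CPM in MPP libraries (log2 difference -1.59, SE 0.21, adjusted p = 1.96e-07). At both genes MS275 was near DMSO and MPP above it, with the third MS275 library the highest of its group. MT-ATP8, MT-ND4, MT-ND2, MT-CYB, MT-ND5, MT-ATP6 and MT-CO2 were lower in MS275 as well, at -0.42 to -1.23. The reverse held for MT-ND3, which had 53.1, 40.9 and 43 CPM in MS275 libraries, against 17.8, 16.4 and 22.9 CPM in MPP libraries and 44.2, 43.5 and 39.5 CPM in DMSO libraries (log2 difference 1.27, SE 0.13, adjusted p = 4.35e-09). The cytochrome oxidase transcripts MT-CO3, at 1827, 1594 and 1663 CPM in MS275 libraries against 858.6, 868.9 and 1072 CPM in MPP libraries, and MT-CO1 were higher in MS275 too, at log2 differences of 0.86 and 0.69. Mitochondrial genes have near-identical copies in the nuclear genome, and how reads that map to both were counted is not given.

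Nuclear genes for mitochondrial RNA were more often called lower than higher in MS275. Of 32 genes of mitochondrial transcription and RNA processing, 19 were lower (59.4%) and 3 higher, and 13 were lower with library totals alone. Their median log2 difference was -0.34 against 0.06 for all genes tested. Over all genes tested 25.9% were lower and 24.9% higher. At 50 to 200 CPM in DMSO, genes were also more often called lower (49.1%) than higher (14.7%). TFAM, which packages mitochondrial DNA and starts its transcription, had 63.5, 62.5 and 63.7 CPM in MS275 libraries, against 85.7, 82 and 95.1 CPM in MPP libraries and 84, 87.4 and 87.7 CPM in DMSO libraries (log2 difference -0.47, SE 0.10, adjusted p = 0.000251). POLG, the mitochondrial DNA polymerase, had 43, 36.8 and 32.5 CPM in MS275 libraries, against 57.8, 63.2 and 50.6 CPM in MPP libraries and 39.8, 42.2 and 40.2 CPM in DMSO libraries. TFAM was thus lower in MS275 than in DMSO, whereas POLG was near DMSO in MS275 and higher in MPP (log2 difference over DMSO 0.49, adjusted p = 0.0158). Of 14 genes of the mitochondrial unfolded protein response 10 were lower in MS275 (71.4%), and GDF15 was higher. The chaperones HSPD1 (log2 difference -0.50) and HSPA9 (-0.38) were among those lower.

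The subunits of the respiratory chain that the nucleus encodes gave no direction that held under each scaling. Of 37 complex I subunits 3 were higher in MS275 and 10 lower, but with library totals alone 8 were higher and 5 lower, and without MS275 replicate 3, 9 were higher. At most 1 was higher without MS275 replicate 1 or MPP replicate 1 or 2, and 6 were lower without MPP replicate 3. For 38 subunits of complexes II to V the counts were 5 higher and 5 lower, 15 and 3 with library totals alone, and 12 higher without MS275 replicate 3; 2 or 3 were higher without MS275 replicate 1 or 2 or MPP replicate 2. NDUFS3, a core subunit of complex I, had 64, 58.2 and 54.9 CPM in MS275 libraries, against 94.5, 91.8 and 84.8 CPM in MPP libraries and 89.3, 87.5 and 95.8 CPM in DMSO libraries (log2 difference -0.61, SE 0.09, adjusted p = 1.75e-06).

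The ER unfolded protein response had more genes higher than lower in MS275, and the ATF4 targets more lower than higher. Of 30 genes of the ER list tested, 17 were higher in MS275 than in MPP (56.7%) and 5 lower (median log2 difference 0.30). Of 38 ATF4 targets tested, 4 were higher and 19 lower (50%, median -0.27). Over all genes tested 24.9% were higher and 25.9% lower. At 50 to 200 CPM in DMSO 14.7% were higher and 49.1% lower, so the ATF4 share lower was near that of genes at that level. Set against DMSO, the ER list had 11 genes higher and 5 lower in MS275, where 20.1% of all genes tested were higher and 23% lower, and 12 lower in MPP, where 5.77% were higher and 5.02% lower. The ATF4 list had 8 higher and 12 lower in MS275, and 15 higher and 2 lower in MPP. These balances kept their side under the scalings tried: with library totals alone the ER list had 19 higher and 2 lower, and the ATF4 list 6 higher and 16 lower.

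HSPA5 (BiP), the main chaperone of the ER lumen and the sensor partner of ATF6, IRE1 and PERK (chr9:125234853-125241330), had 236, 219 and 289 CPM in MS275 libraries, against 52.4, 60.2 and 74.5 CPM in MPP libraries and 96.4, 115 and 119 CPM in DMSO libraries. MS275 lay above DMSO and MPP below it, with no overlap, and the log2 difference between the compounds was 1.99 (SE 0.13, adjusted p = 8.48e-13). SDF2L1, a cofactor of HSPA5, had 30.6, 30.7 and 19.8 CPM in MS275 libraries, against 7.16, 5.41 and 7.18 CPM in MPP libraries and 16.4, 17.4 and 16 CPM in DMSO libraries (log2 difference 2.05, SE 0.16, adjusted p = 9.2e-12). PDIA4, a disulfide isomerase, had 379, 414 and 285 CPM in MS275 libraries, against 128, 125 and 109 CPM in MPP libraries and 187, 191 and 187 CPM in DMSO libraries (log2 difference 1.57, SE 0.10, adjusted p = 3.44e-13). MANF, a secreted factor of the ER that protects dopaminergic neurons in rodents, had 126, 137 and 108 CPM in MS275 libraries, against 49.9, 42.7 and 48.1 CPM in MPP libraries and 84.3, 74 and 73.2 CPM in DMSO libraries (log2 difference 1.40, SE 0.11, adjusted p = 1.81e-11). These 4 genes and CRELD2 were called on both sides of DMSO. The sensors differed among themselves: ERN1 was higher in MS275 (log2 difference 0.99), whereas EIF2AK3 (-0.39) and ATF6 (-0.31) were lower. XBP1, whose spliced form drives ER chaperone genes, was higher (0.80), and so was DERL3 (1.66), a channel of ER-associated degradation, although its groups overlapped at 2.37, 2.28 and 0.48 CPM in MS275 libraries, against 0.759, 0.541 and 0.317 CPM in MPP libraries. CRTC2, a CREB coactivator, SYVN1, the ligase of ER-associated degradation, and DERL1 were lower at -1.18, -0.46 and -0.22. The number lower was 3 in place of 5 without MPP replicate 2 or 3 or MS275 replicate 1 or 2.

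Promoters of the ER list carried an element that is known to bind ATF6 together with NF-Y, and they are shown because 17 of its 30 members were higher in MS275. The element was in a minority of them. The ER stress response element was searched as CCAAT and CCACG with any 9 bases between them, on both strands, in the 250 bases upstream of the RefSeq start (GRCh38.p14). It was found in 6 of 26 promoters of the list (23.1%), in 14 of 11805 promoters of genes tested (0.119%) and in 22 of 27305 in the table (0.0806%). The list members were HSPA5, CRELD2, XBP1, HSP90B1, CALR and CANX, each higher in MS275 than in MPP, at 0.20 (CANX) to 1.99 (HSPA5). Of the 8 other genes with the element, ALG12, FICD and TRIM5 were higher, EIF2A was lower, and ERO1B, SERP1, TMEM120A and ZNF17 were not called. CRELD2 and ALG12 overlap head to head and share this element, and reads from their overlap cannot be told apart. The element is known from promoters of ER chaperone genes, which this list holds, so its share there says nothing about these cultures. A match is a stretch of letters and not evidence of binding. In the sequences below, each from 5′ to 3′ on the strand of the gene, capitals mark the element on either strand.
HSPA5 (chr9:125241344-125241593, minus strand): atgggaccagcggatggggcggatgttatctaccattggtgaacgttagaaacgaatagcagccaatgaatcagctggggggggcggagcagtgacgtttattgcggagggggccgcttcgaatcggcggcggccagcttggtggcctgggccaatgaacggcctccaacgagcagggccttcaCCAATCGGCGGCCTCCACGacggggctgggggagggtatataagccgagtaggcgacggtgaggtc
CRELD2 (chr22:49918384-49918633, plus strand): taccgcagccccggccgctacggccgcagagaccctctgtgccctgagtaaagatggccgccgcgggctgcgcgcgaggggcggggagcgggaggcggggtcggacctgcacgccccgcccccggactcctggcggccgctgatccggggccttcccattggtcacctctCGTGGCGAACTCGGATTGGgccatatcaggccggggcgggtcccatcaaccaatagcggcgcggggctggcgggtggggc
XBP1 (chr22:28800570-28800819, minus strand): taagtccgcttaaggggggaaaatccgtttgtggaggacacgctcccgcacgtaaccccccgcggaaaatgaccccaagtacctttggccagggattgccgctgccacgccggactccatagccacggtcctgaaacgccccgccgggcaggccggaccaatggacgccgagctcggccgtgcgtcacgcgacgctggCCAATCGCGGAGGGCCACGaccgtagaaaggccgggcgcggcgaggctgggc
HSP90B1 (chr12:103930160-103930409, plus strand): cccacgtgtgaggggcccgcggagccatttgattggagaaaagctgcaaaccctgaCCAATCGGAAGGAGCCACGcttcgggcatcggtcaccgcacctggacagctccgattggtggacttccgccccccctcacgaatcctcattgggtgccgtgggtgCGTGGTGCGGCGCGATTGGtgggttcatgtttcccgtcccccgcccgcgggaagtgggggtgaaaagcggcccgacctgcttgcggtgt

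The element starts 66 bases upstream of the window's end in HSPA5, 80 in CRELD2 and 52 in XBP1, and HSP90B1 holds it at 194 and at 89 bases. HSP90B1, the ER paralogue of HSP90, had 540, 561 and 499 CPM in MS275 libraries, against 347, 354 and 367 CPM in MPP libraries and 434, 468 and 492 CPM in DMSO libraries. Its log2 difference was 0.58 (SE 0.08, adjusted p = 3.31e-07).

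Of the ATF4 targets, DDIT3 (CHOP), a transcription factor of stress-induced death (chr12:57516588-57521737), had 10.6, 7.98 and 6.71 CPM in MS275 libraries, against 27.4, 26.7 and 27.6 CPM in MPP libraries and 7.4, 10.7 and 11.5 CPM in DMSO libraries. MPP stood apart from the other groups, and the log2 difference was -1.68 (SE 0.18, adjusted p = 6.22e-09). SLC7A11, the cystine importer, had 5.65, 3.69 and 5.21 CPM in MS275 libraries, against 13.8, 15.3 and 20.1 CPM in MPP libraries and 2.28, 4.6 and 4.02 CPM in DMSO libraries (log2 difference -1.76, SE 0.25, adjusted p = 6.67e-07). SESN2, an inhibitor of mTORC1, had 12.3, 14 and 11.4 CPM in MS275 libraries, against 41.3, 31.9 and 31.5 CPM in MPP libraries and 28.1, 25.3 and 21.7 CPM in DMSO libraries (log2 difference -1.47, SE 0.16, adjusted p = 6.64e-09). ATF4 itself had 411, 459 and 329 CPM in MS275 libraries, against 683, 669 and 638 CPM in MPP libraries and 428, 462 and 452 CPM in DMSO libraries (log2 difference -0.73, SE 0.09, adjusted p = 4.88e-08). MPP was thus above DMSO at each of these 4 genes, while MS275 was below DMSO at SESN2 and not called at the other 3. CHAC1, a glutathione-degrading enzyme, was above DMSO in both, with 16.6, 16.4 and 12.6 CPM in MS275 libraries, against 29.1, 25.8 and 23.4 CPM in MPP libraries and 7.54, 8.72 and 8.9 CPM in DMSO libraries.

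Against this order, 4 targets were higher in MS275. GDF15, a secreted stress hormone (chr19:18374731-18389176), had 9.47, 8.74 and 6.3 CPM in MS275 libraries, against 1.72, 1.3 and 1.48 CPM in MPP libraries and 1.21, 1.17 and 0.828 CPM in DMSO libraries (log2 difference 2.45, SE 0.29, adjusted p = 2.99e-08). SLC7A5, a transporter of large neutral amino acids, had 118, 127 and 108 CPM in MS275 libraries, against 48.7, 60.5 and 53.2 CPM in MPP libraries and 33, 42.1 and 38.1 CPM in DMSO libraries. PYCR1 and ALDH1L2 were higher at 0.60 and 0.45. TRIB3, a pseudokinase that ATF4 and CHOP induce, had 17.3 ± 2.43 CPM in MS275, 17.1 ± 2.98 CPM in MPP and 16 ± 1.17 CPM in DMSO (SD, n = 3 each), and the 95% interval of its log2 difference between the compounds was -0.27 to 0.31. The core of the element that ATF4 dimers bind, TGATGNAA on both strands, was found in the 250 upstream bases of 3 of 27 promoters of the list (11.1%) and of 1.49% of promoters of genes tested. In the whole 300-base window it was in 18.5% of the list. The 3 were CHAC1 and ASNS, which makes asparagine, both lower in MS275, and ATF3, which was not called (log2 difference 0.44). The CRE, TGACGTCA, was in 1 of the 27 (3.7%) and in 2.69% of promoters of genes tested. CHAC1 and ASNS are shown with the match of TGATGNAA in capitals.
CHAC1 (chr15:40953221-40953470, plus strand): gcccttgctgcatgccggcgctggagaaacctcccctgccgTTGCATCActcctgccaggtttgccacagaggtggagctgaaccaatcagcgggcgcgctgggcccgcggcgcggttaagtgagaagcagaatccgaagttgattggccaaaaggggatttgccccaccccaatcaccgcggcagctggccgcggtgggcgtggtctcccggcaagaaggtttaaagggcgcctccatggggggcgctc
ASNS (chr7:97872409-97872658, minus strand): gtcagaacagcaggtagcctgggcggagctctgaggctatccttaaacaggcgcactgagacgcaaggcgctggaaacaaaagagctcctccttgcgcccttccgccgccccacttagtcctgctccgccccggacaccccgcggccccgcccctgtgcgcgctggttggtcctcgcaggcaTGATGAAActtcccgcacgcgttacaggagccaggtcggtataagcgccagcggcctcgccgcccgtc

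ASNS had 150, 158 and 163 CPM in MS275 libraries, against 190, 184 and 188 CPM in MPP libraries and 172, 174 and 190 CPM in DMSO libraries. It was lower in MS275 than in MPP (log2 difference -0.25, SE 0.08, adjusted p = 0.00813) and not called in either compound against DMSO.

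**Figure D4:**
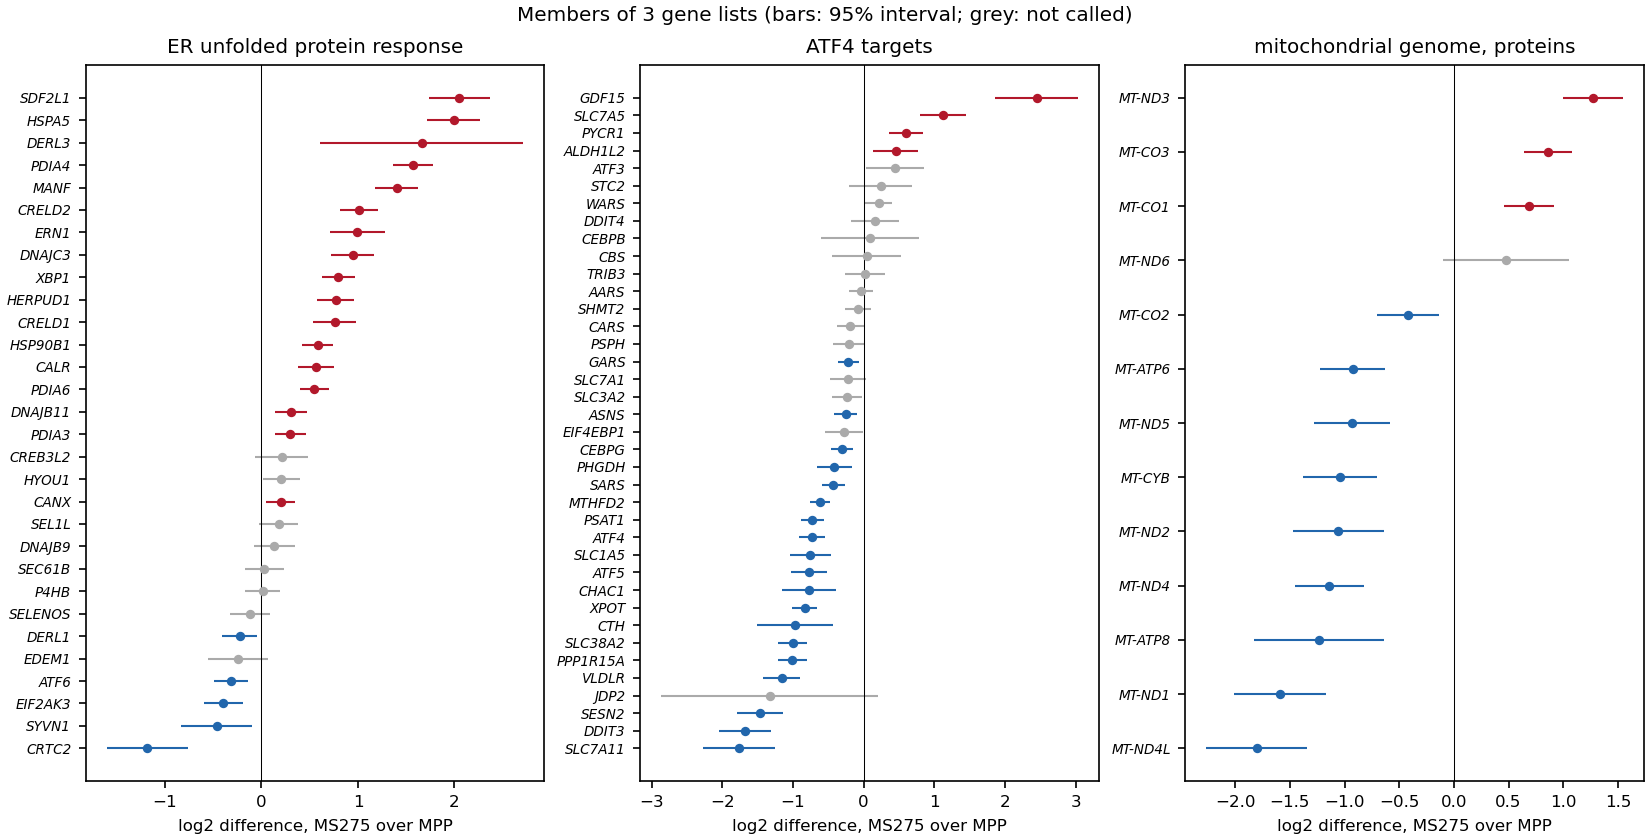
The log2 difference of MS275 over MPP is plotted for the members of 3 lists, with the 95% interval as a bar, in colour where called and grey where not. ER genes lie mostly right of 0, led by SDF2L1 at 2.05, ATF4 targets mostly left with GDF15 at 2.45 apart, and the mitochondrial transcripts split between MT-ND3 at 1.27 and MT-ND4L at -1.80.

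The targets of MS275 and their partners were counted in both groups. Of the 4 class I deacetylases, HDAC8 (log2 difference -0.51, SE 0.11, adjusted p = 0.000382) and HDAC1 (-0.34, SE 0.10, adjusted p = 0.0042) were lower in MS275, whereas HDAC2 (0.08) and HDAC3 (0.06) were not called; with library totals alone HDAC1 was no longer called and HDAC2 was called higher. Of 14 other deacetylases and sirtuins 3 were higher and 2 lower, and 5 were higher with library totals alone. HDAC8 had 23.7, 28.6 and 25.9 CPM in MS275 libraries, against 36.5, 36 and 39.1 CPM in MPP libraries. Of 27 subunits of the corepressor complexes 16 were lower in MS275 and 2 higher (median log2 difference -0.36), and 14 lower and 5 higher with library totals alone. SIN3A, the scaffold of its complex (chr15:75369379-75455842), had 20.3, 20.3 and 27.1 CPM in MS275 libraries, against 51.8, 55.3 and 59.5 CPM in MPP libraries and 55.7, 53.8 and 54.5 CPM in DMSO libraries (log2 difference -1.31, SE 0.12, adjusted p = 5.9e-10). MPP and DMSO lay together, and MS275 below both. RCOR3, SAP30, MTA2 and NCOR1 were lower at -0.88 to -1.29. Of 18 acetyltransferase and bromodomain genes 9 were lower in MS275, among them HAT1 (-1.10), KAT7 (-0.93) and EP300 (-0.88). As shares, 59.3% of the corepressor subunits and 50% of the acetyltransferase and bromodomain genes were lower. Over all genes tested 25.9% were lower, and at 50 to 200 CPM in DMSO 49.1% were. The acetyltransferase and bromodomain share was thus near that of genes at that level.

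Of 8 genes known to respond to deacetylase inhibition 7 were tested, and these were higher in MS275 under each of the alternatives; GSN, with 30 reads over the 9 libraries, was not tested. The list was drawn up with earlier results of these data known. Besides DHRS2, HDAC9, a class IIa deacetylase, had 25.7, 27.6 and 29.5 CPM in MS275 libraries, against 9.5, 10.8 and 10.3 CPM in MPP libraries and 12.3, 12.8 and 10.8 CPM in DMSO libraries (log2 difference 1.43, SE 0.15, adjusted p = 5.1e-09). CDKN1A (p21), an inhibitor of cyclin-dependent kinases, had 48.5, 54.7 and 35.8 CPM in MS275 libraries, against 26.3, 28.2 and 26.5 CPM in MPP libraries and 18.4, 18.7 and 18.9 CPM in DMSO libraries. It was above DMSO in both compounds (log2 difference over DMSO 1.32 in MS275 and 0.53 in MPP, adjusted p = 1.29e-08 and 0.0142) and further so in MS275. CCND1, CLU and H1F0 were higher at 0.75, 0.54 and 0.49.

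TXNIP stood apart in that list. This inhibitor of thioredoxin, which the glucose sensor MondoA (MLXIP) and its partner MLX induce (chr1:145992435-145996600), had 112, 113 and 112 CPM in MS275 libraries, against 43.9, 34.4 and 32.6 CPM in MPP libraries and 116, 123 and 130 CPM in DMSO libraries. The log2 difference of 1.60 (SE 0.10, adjusted p = 4.84e-13) stood beside a level below DMSO in MPP (log2 difference over DMSO -1.73, adjusted p = 2.43e-12). ARRDC4, another target of MondoA, had 17.6, 14.8 and 12.9 CPM in MS275 libraries, against 7.82, 7.5 and 7.55 CPM in MPP libraries and 21.8, 18.9 and 22.5 CPM in DMSO libraries (log2 difference 0.99, SE 0.14, adjusted p = 1.2e-06). ARRDC3 (-0.95) and MLX (-0.85) were lower in MS275. Glycolytic enzymes had 2 of 17 higher and 2 lower, 5 higher with library totals alone, and 4 higher without MS275 replicate 3. The 2 lower were HK2 (-0.80) and LDHA (-0.29); neither was called with library totals alone or without MS275 replicate 2, and 1 of them was when any other MS275 or MPP library was left out. Of 6 genes of the MondoA axis 2 were higher and 2 lower.

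More genes of cell division were lower than higher in MS275. Over all genes tested 25.9% were lower, and of those at 10 to 50 CPM in DMSO 41.6% were. Replication and repair genes, at 47.2% and 43.8% lower, were near the latter share, and mitotic genes, at 70.8%, were above it. Of 36 replication genes 17 were lower and 2 higher (median log2 difference -0.40), of 24 mitotic genes 17 were lower (median -0.55) and 0 higher, and of 32 DNA repair genes 14 were lower and 3 higher (median -0.38). MKI67 (0.01), CDK1 (-0.01), RRM2 (0.02), PCNA (-0.13) and TOP2A (-0.14) were not called, and CDC45 (0.91) and UHRF1 (0.51) were the 2 replication genes that were higher. CDC25A, the phosphatase that starts S phase (chr3:48157146-48188402), had 7.23, 9.7 and 5.55 CPM in MS275 libraries, against 26.6, 28.4 and 23.8 CPM in MPP libraries and 32.7, 29.4 and 30.3 CPM in DMSO libraries (log2 difference -1.78, SE 0.14, adjusted p = 2.33e-11). AURKA, a mitotic kinase, had 7.27, 7.13 and 5.75 CPM in MS275 libraries, against 22.4, 23 and 23.4 CPM in MPP libraries and 18.1, 16.7 and 18.9 CPM in DMSO libraries (log2 difference -1.76, SE 0.16, adjusted p = 1.59e-10). UNG, which removes uracil from DNA, had 12.6, 13.5 and 11.1 CPM in MS275 libraries, against 41.2, 38 and 40.9 CPM in MPP libraries and 51.8, 52.3 and 49.7 CPM in DMSO libraries (log2 difference -1.68, SE 0.11, adjusted p = 7.3e-13). At these genes MS275 was well below DMSO, and MPP was called below DMSO at UNG alone of the 3. In bulk RNA, fewer cells of a type and less RNA per cell cannot be told apart.

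Genes of growth arrest and cell death lay on both sides of the comparison. CCNG1, a cyclin, had 90.7, 89.1 and 89.5 CPM in MS275 libraries, against 232, 236 and 237 CPM in MPP libraries and 168, 151 and 157 CPM in DMSO libraries. GADD45A, a growth arrest gene, went the other way, with 66.8, 65.6 and 54.1 CPM in MS275 libraries, against 30.5, 28.9 and 21.7 CPM in MPP libraries and 17.9, 21.6 and 20.1 CPM in DMSO libraries. Of 15 BCL2 family genes 5 were higher and 6 lower, or 6 and 4 with library totals alone. BIK, a death-promoting BH3-only protein, had 3.74, 3.76 and 3.43 CPM in MS275 libraries, against 0.165, 0 and 0.106 CPM in MPP libraries, which rest on 7 reads in all. BMF was higher at 0.72, while BBC3 (PUMA) was lower at -0.98, so that BH3-only genes lay on both sides.

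Protein quality control outside the ER had more genes lower than higher in MS275. The shares lower were 57.1% of heat shock factor targets and 54.8% of proteasome subunits. Over all genes tested the share lower was 25.9%, and at 50 to 200 CPM in DMSO it was 49.1%. Of 21 heat shock factor targets 12 were lower and 1 higher, and 8 lower and 1 higher with library totals alone. Of 31 proteasome subunits 17 were lower and 1 higher, and 12 lower and 1 higher with library totals alone. DNAJB1, a cofactor of HSP70, had 73.7, 65.4 and 61.7 CPM in MS275 libraries, against 148, 149 and 144 CPM in MPP libraries and 155, 150 and 141 CPM in DMSO libraries (log2 difference -1.13, SE 0.09, adjusted p = 9.4e-12). BAG3, which guides clients of HSP70 to autophagy, was the exception at 31.3, 35.9 and 33.5 CPM in MS275 libraries, against 14.4, 17.3 and 15.1 CPM in MPP libraries (log2 difference 1.11, SE 0.12, adjusted p = 7.63e-09). HSPA1A, which has a near-identical copy in the genome, had 0 counts in each of these libraries. Targets of NRF2, the regulator of antioxidant genes, were split: of 25, 4 were higher, among them HMOX1 (heme oxygenase, log2 difference 1.05) and SRXN1 (1.67), and 9 were lower, among them GSR (glutathione reductase, -1.26).

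Of 14 genes of the dopaminergic phenotype tested, 9 were higher in MS275 (64.3%) and 0 lower. The 5 not called were SLC18A2, EN1, EN2, PITX3 and GFRA1. Over all genes tested 24.9% were higher, and at 2 to 10 CPM in DMSO 37.5% were. TH, tyrosine hydroxylase, which catalyses the first and limiting step to dopamine (chr11:2163929-2171877), had 79.2, 75 and 69.9 CPM in MS275 libraries, against 32.1, 32.8 and 30 CPM in MPP libraries and 55.2, 51.4 and 45.9 CPM in DMSO libraries. MS275 lay above DMSO and MPP below it (log2 difference over DMSO 0.56 and -0.68, adjusted p = 0.000865 and 0.00087), and the difference between the compounds was 1.24 (SE 0.13, adjusted p = 6.95e-09). DDC, the decarboxylase of the next step, had 6.23, 4.52 and 3.9 CPM in MS275 libraries, against 1.19, 0.793 and 1.21 CPM in MPP libraries and 2.56, 3.39 and 2.4 CPM in DMSO libraries (log2 difference 2.21, SE 0.33, adjusted p = 2.17e-06). SLC6A3, through which MPP enters, had 1144, 940 and 946.9 CPM in MS275 libraries, against 839.6, 797.7 and 698.2 CPM in MPP libraries and 697.2, 577.6 and 632.5 CPM in DMSO libraries (log2 difference 0.38, SE 0.11, adjusted p = 0.00675). NR4A2, a transcription factor of dopaminergic fate, was higher at 0.89, GCH1, which makes the cofactor of TH, at 0.84, and LMX1B at 3.51 from 134 reads in MS275 and 12 in MPP. SLC18A2, the vesicular monoamine transporter, was not called, with 0.741 ± 0.39 CPM in MS275 and 0.622 ± 0.462 CPM in MPP (SD, n = 3 each). Among genes of familial parkinsonism, 3 of 13 were higher and 4 lower, or 5 and 3 with library totals alone, and SYNJ1 and FBXO7 were lower in MS275 at -0.80 and -0.66.

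Axon guidance had the largest number of members higher in MS275, 24 of 39 (61.5%), with 2 lower (median log2 difference 0.53). By share it came after the responders to deacetylase inhibition (100%), astrocyte and oligodendrocyte markers (66.7%) and dopaminergic genes (64.3%). Over all genes tested 24.9% were higher and 25.9% lower, and at 2 to 10 CPM in DMSO 37.5% were higher. EPHA4, an ephrin receptor (chr2:221418027-221574202), had 27.4, 34.3 and 29.9 CPM in MS275 libraries, against 7.99, 6.31 and 9.03 CPM in MPP libraries and 9.04, 9.94 and 9.4 CPM in DMSO libraries (log2 difference 1.98, SE 0.15, adjusted p = 6.81e-12). UNC5B, a netrin receptor, had 27.9, 25.3 and 20.7 CPM in MS275 libraries, against 7.75, 8.58 and 6.44 CPM in MPP libraries and 4.05, 4 and 4.08 CPM in DMSO libraries (log2 difference 1.70, SE 0.19, adjusted p = 1.29e-08). SEMA3C, a secreted semaphorin, had 17.4, 20 and 18.7 CPM in MS275 libraries, against 5.74, 5.77 and 7.23 CPM in MPP libraries (log2 difference 1.59, SE 0.18, adjusted p = 1.99e-08). Ligands and receptors were both among the 24, with the netrin NTN1 at 1.03, the slits SLIT1 and SLIT2 at 1.02 and 1.11, and the plexins PLXND1 and PLXNA2 at 1.06 each. Release machinery of synaptic vesicles did not share this direction, with 5 of 29 higher and 10 lower, 8 of each with library totals alone, and 3 higher without MPP replicate 1 or 3. RIMS1, a scaffold of the active zone, had 4.86, 5.25 and 6.17 CPM in MS275 libraries, against 12.6, 13.1 and 15.8 CPM in MPP libraries (log2 difference -1.36, SE 0.17, adjusted p = 7.41e-08). Voltage-gated channels had 9 of 31 higher and 5 lower, and 5 higher without MPP replicate 1. Neurotransmitter receptors had 9 of 25 higher and 3 lower, and tubulins 5 of 13 higher and 2 lower.

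Markers of other cell types moved with these groups. Of 12 astrocyte and oligodendrocyte markers tested 8 were higher in MS275 and 2 lower (4 higher and 1 lower with a minimum of 5 CPM, where fewer were tested), and the list summed to 255.3 to 295.3 CPM in MS275, 211.2 to 215.2 CPM in MPP and 206.9 to 221.4 CPM in DMSO. Its defining markers were at or near 0, with 0 counts of SOX10, 12 of GFAP and 1 of MOG over the 9 libraries. Of 7 microglia and fibroblast markers 4 were higher, and the list summed to 125.8 to 129.7 CPM in MS275, 76.64 to 83.53 CPM in MPP and 45.64 to 49.59 CPM in DMSO, with 8 counts of AIF1 and 7 of P2RY12. TMEM119, a microglial and osteoblast membrane protein, had 17.4, 20.6 and 14.1 CPM in MS275 libraries, against 1.58, 1.98 and 1.32 CPM in MPP libraries (log2 difference 3.40, SE 0.29, adjusted p = 9.01e-11). COL1A1, the fibrillar collagen, had 12.2, 10.4 and 9.87 CPM in MS275 libraries, against 1.16, 1.98 and 1.27 CPM in MPP libraries (log2 difference 2.87, SE 0.35, adjusted p = 4.83e-08). Neural precursor markers had 6 of 11 higher, and summed to 385.3 to 421.1 CPM in MS275, 282.1 to 326.5 CPM in MPP and 247.4 to 263.2 CPM in DMSO. NES, an intermediate filament of precursors, had 158, 153 and 132 CPM in MS275 libraries, against 79.8, 87.2 and 76.6 CPM in MPP libraries. The part of other cells in the neuronal results was not tested.

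**Figure D5:**
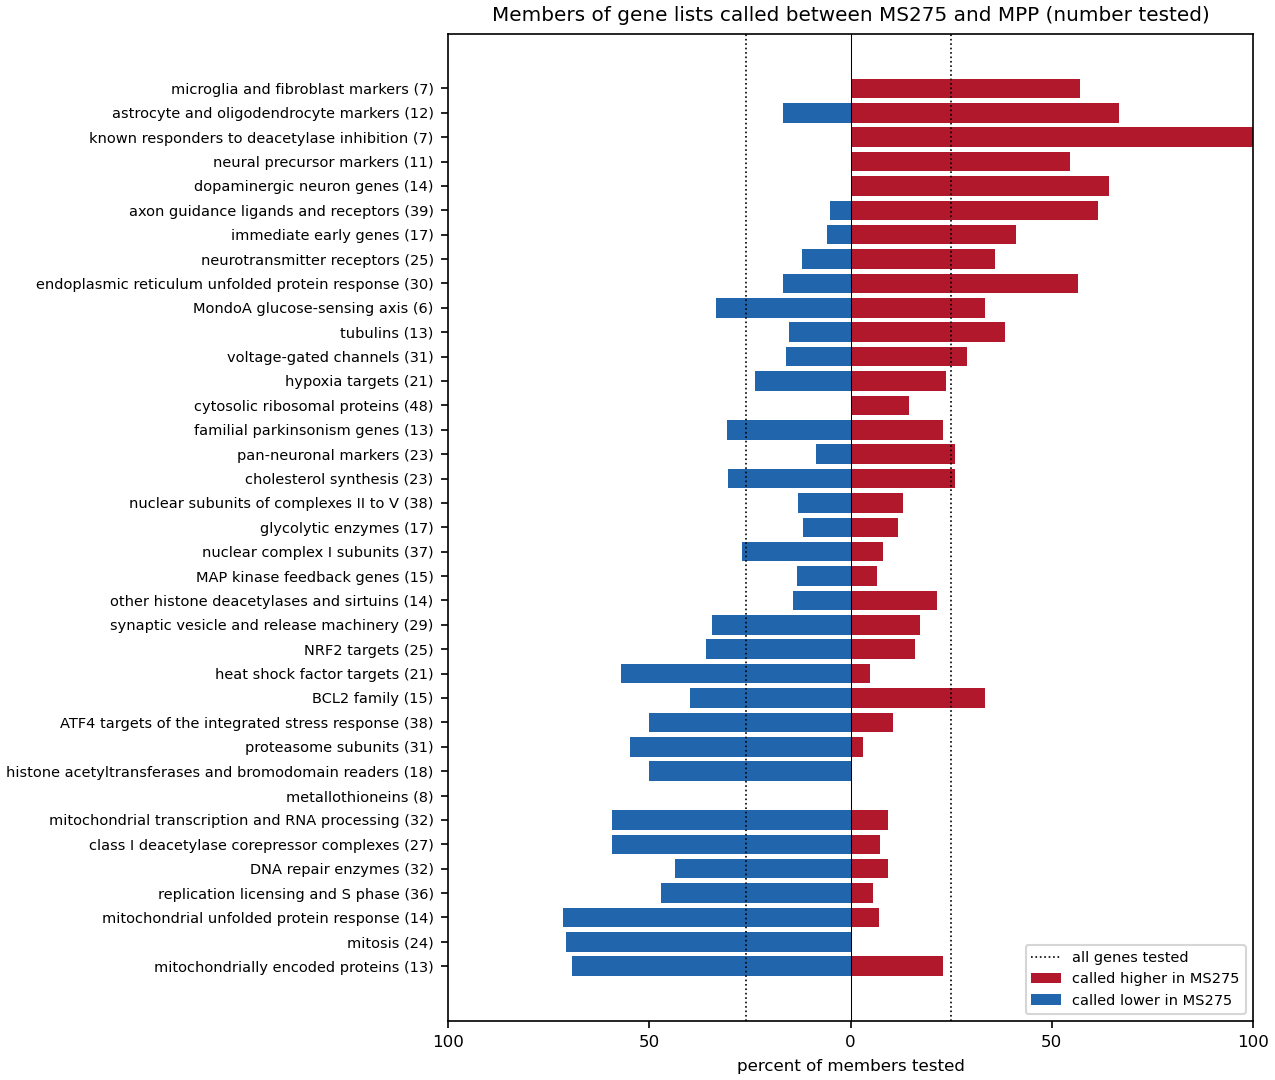
Bars give the percent of tested members of the gene lists shown that were called higher (right) or lower (left) in MS275 than in MPP, ordered by median log2 difference with the number tested in brackets; dotted lines mark 24.9% and 25.9%, the shares over all genes tested. Responders to deacetylase inhibition, astrocyte and oligodendrocyte markers, dopaminergic genes and axon guidance reach furthest right, and mitotic genes, the mitochondrial unfolded protein response and mitochondrially encoded proteins furthest left.

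Of 17 immediate early genes tested 7 were higher in MS275 (41.2%), among them NR4A3 (1.92) and MYC (1.12), and only JUNB was lower (-0.98), with a median log2 difference of 0.49 over the list. Of 15 genes of MAP kinase feedback 1 was higher and 2 lower, and 3 were higher with library totals alone. Hypoxia targets had 5 of 21 higher and 5 lower, or 8 and 4 with library totals alone, with EGLN3 (1.84) and ERO1A (-1.36) at the ends. Cholesterol genes had 6 of 23 higher and 7 lower, or 9 and 4 with library totals alone. Of 48 cytosolic ribosomal protein genes 7 were higher, at no more than 0.28, but 28 were with library totals alone and 21 without MS275 replicate 3, and between 0 and 4 were when MS275 replicate 1 or 2, an MPP library or DMSO replicate 1 was left out. The metallothioneins summed to 11.71, 15.57 and 16.31 CPM in MS275 libraries, against 11.52, 15.32 and 18.9 CPM in MPP libraries, and the groups overlapped.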

How the data were processed

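RNA sequencing libraries of 9 cultures (MS275, MPP and DMSO, 3 each) carry the results, and the other 15 libraries of the series entered the fit to estimate the spread. The authors deposited raw read counts per gene; STAR, HTSeq and the build GRCh38 are named for this step, per the submitters' processing notes. Versions, annotation, strand setting and the handling of reads with several positions were not given in the sources used here. Of the 58051 genes, 266 had no name and held 0.00492% of counts. Coordinates came from GENCODE 29 and promoters from RefSeq (GRCh38.p14), where 11805 genes tested were matched by symbol.

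Counts were fitted with edgeR 4.0.16 (R 4.3.3), with TMM scaling, the default expression filter and 1 coefficient for each of 8 groups over 24 libraries, which left 16 residual degrees of freedom. MS275 minus MPP, MS275 minus DMSO and MPP minus DMSO were tested by quasi-likelihood F tests, with p-values adjusted by Benjamini-Hochberg over all genes tested at 0.05. CPM are counts per megacount of the TMM-scaled total. Intervals are 95% intervals of the fit. Alternatives used DESeq2 1.42.0, limma-voom (limma 3.58.1), other scalings, filters and samples. The procedure was tested on simulated counts.

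Named genes were, in the direct comparison, the 12 each way with the largest log2 difference among called genes that did not overlap between libraries and averaged 5 CPM or more where higher; clone names were left out. To these came the 8 each way called in opposite directions against DMSO and up to 5 called members of each list; other members are given as examples. The members and the 40 lists were chosen with earlier results of these data known, and lists were described by counts and medians with no test; 1 list and some single genes are not reported here. Pairs of replicates differed by more than sampling noise (chi-square per degree of freedom 4.188 to 22.52), so each counted as 1 sample. The labels call them biological samples and do not say how cultures were set up, so p-values measure the spread between these samples.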

Additional observations from a re-analysis of the deposited data

How the results depend on the processing

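Each count and each named gene was recomputed under 19 alternatives. Of 9571 genes called, 5615 (58.7%) were called in the same direction under each of them, 6107 (63.8%) under the 10 that kept all libraries and 6891 (72%) when 1 MS275 or MPP library was left out. Some of the 10 tested fewer genes than the 18852, and a gene left out there could not be called. The minimum of 5 CPM in 3 libraries tested 12192, and the fit without the mitochondrial genome 18845. Among 212 named genes, 188 kept their direction and their side of the threshold under every alternative that could be computed, 20 lost their call under at least 1, and none was called in the other direction. A minimum of 5 CPM in 3 libraries left 1552 genes at least 2-fold apart (1197 higher and 355 lower in MS275), where fewer genes were tested. Genes higher in MS275 and lower in MPP than DMSO numbered 377 when the 9 libraries were fitted alone, and those lower in MS275 and higher in MPP 141 with library totals alone; the cause was not tested. Leaving out 1 library gave 8320 to 9568 calls, 3006 to 3457 at least 2-fold apart, and 260 to 674 in opposite directions (111 to 258 higher in MS275 and 149 to 416 lower in it). With the replicate number as a block 9346 genes were called (4546 higher, 4800 lower). Deviations from the group mean correlated at 0.0391, 0.0174 and 0.113 between MS275 and MPP libraries of the same number. Between libraries of different numbers the correlations ran from -0.106 to 0.0946. Values this small cannot decide whether samples of the same number were set up together. The other scalings gave 54.72% (size factors of DESeq2 in edgeR) and 55.26% (DESeq2) of calls higher. Where a list had 1 or 2 members called in a direction, leaving out 1 library moved that count by 1 in the corepressor, replication, axon guidance, glial, proteasome, tubulin, pan-neuronal, MAP kinase feedback and immediate early gene lists. Depth limits calls of genes lower in MS275 at low levels.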
